A study of Arabidopsis thaliana with 22 samples.

Results

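The genes described here are LOX2 (AT3G45140), LOX3 (AT1G17420), LOX4 (AT1G72520), AOS (AT5G42650), AOC1 (AT3G25760), AOC2 (AT3G25770), OPR3 (AT2G06050), VSP1 (AT5G24780) and VSP2 (AT5G24770). They were taken by their locus identifiers as the jasmonate synthesis and vegetative storage protein genes of the deposited table, with no threshold on their values. The choice was made with earlier results of these data known, which limits the counts set below against shares of all genes. They make up 9 of the 32833 genes of that table. All 9 passed the filter on low values in every comparison. The study set Arabidopsis thaliana seedlings lacking the F-box protein BAF1, or carrying a stabilised form of the transcription factor BES1, against wild type in order to follow brassinosteroid (BR) regulated transcription. QuantSeq, which reads the 3′ ends of polyadenylated transcripts, was run on whole 7-day-old seedlings. The 22 libraries fell into bes1-D grown with brassinazole (BRZ, n = 3) and without it (n = 4), baf1 with BRZ (n = 4) and without it (n = 4), and WT with BRZ (n = 3) and without it (n = 4). BRZ, an inhibitor of BR synthesis, was in the medium at 250 nM during growth, and untreated seedlings had DMSO. All plants were of the Col-0 ecotype on medium with sucrose. baf1 is a T-DNA insertion line, so a single insertion stands for loss of BAF1, and bes1-D is a dominant gain-of-function allele brought into Col-0 by introgression, so DNA linked to it on chromosome 1 may come from its original background. Nothing in the labels says whether replicates were separate plates or harvests, so P-values measure the spread between these libraries, which may be technical.

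Jasmonates are oxylipin hormones of defence, wounding and stamen development. Lipoxygenases such as LOX2, LOX3 and LOX4 oxygenate linolenic acid in the plastid, allene oxide synthase (AOS) and allene oxide cyclases (AOC) turn the product into the cyclic precursor OPDA, and OPR3 reduces OPDA in the peroxisome before chain shortening by beta-oxidation yields jasmonic acid. Its isoleucine conjugate is perceived by COI1 together with JAZ repressors, whose removal frees MYC transcription factors, and the synthesis genes themselves as well as VSP1 and VSP2, which encode acid phosphatase-like storage proteins, are long-used jasmonate-induced transcripts.

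BES1 is known to bind E-boxes (CANNTG) and the BR response element, searched here as CGTGTG and CGTGCG, and MYC factors bind the G-box (CACGTG, itself an E-box). The sequences just upstream of the annotated start are shown for LOX2 and AOS, the members that differed from WT in bes1-D without BRZ, and for AOC2, which differed from WT in bes1-D under BRZ, with its tandem copy AOC1. They were read from the TAIR10.1 genome by its RefSeq annotation, 250 bases each, 5′ to 3′ on the gene's strand. In the LOX2 and AOS sequences capitals mark matches to any of the 4 motifs, and in the AOC1 and AOC2 sequences they mark the longest run of 19 bases that both promoters hold.
LOX2 promoter, chr3:16524995-16525244, plus strand: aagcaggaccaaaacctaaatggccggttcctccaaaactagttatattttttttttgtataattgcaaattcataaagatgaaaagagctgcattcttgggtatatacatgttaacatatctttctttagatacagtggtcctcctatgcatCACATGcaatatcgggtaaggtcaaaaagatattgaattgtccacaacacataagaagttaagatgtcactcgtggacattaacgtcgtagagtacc
AOS promoter, chr5:17099596-17099845, minus strand: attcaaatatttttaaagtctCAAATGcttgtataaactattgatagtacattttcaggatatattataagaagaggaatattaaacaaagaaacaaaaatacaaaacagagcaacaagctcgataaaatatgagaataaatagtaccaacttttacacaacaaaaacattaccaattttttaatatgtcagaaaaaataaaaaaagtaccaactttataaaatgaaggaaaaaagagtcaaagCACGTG
AOC1 promoter, chr3:9403529-9403778, plus strand: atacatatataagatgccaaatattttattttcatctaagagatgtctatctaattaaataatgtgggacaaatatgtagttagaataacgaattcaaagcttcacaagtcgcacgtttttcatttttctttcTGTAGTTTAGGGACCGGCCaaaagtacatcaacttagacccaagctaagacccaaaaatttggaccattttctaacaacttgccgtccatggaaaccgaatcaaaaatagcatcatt
AOC2 promoter, chr3:9406419-9406668, plus strand: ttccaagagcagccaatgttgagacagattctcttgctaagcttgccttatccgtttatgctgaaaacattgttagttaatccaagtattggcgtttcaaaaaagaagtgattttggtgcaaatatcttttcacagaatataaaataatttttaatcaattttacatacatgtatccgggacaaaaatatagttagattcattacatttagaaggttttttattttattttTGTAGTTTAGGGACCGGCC

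Over the window from 250 bases before to 50 bases after the start, both strands, the LOX2 promoter held a single E-box beginning 97 bases before the start and neither form of the BR response element. AOS held a G-box in the last 6 bases before its start and an E-box that began 229 bases before it. The LOX3 promoter had an E-box at 65 bases before the start and CGTGTG after the start, LOX4 had an E-box at 19 and CGTGTG at 92 bases before the start, and AOC1 had CGTGCG, read on the other strand, at 140 bases before the start. AOC2, OPR3, VSP1 and VSP2 held none of the 4 motifs in this window. An E-box stood in 4 of the 9 promoters, against 61.7% of 27443 promoters of nuclear protein-coding genes of the same length, a G-box in 1 of 9 against 7.68%, CGTGTG in 2 of 9 against 6.52% and CGTGCG in 1 of 9 against 1.96%. With so few promoters these shares describe the sequences and say nothing of binding. The shared run ends 1 base before the start of AOC2 and lies 117 to 99 bases before that of AOC1.

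Among the copies, AOC1 and AOC2 lie next to each other on chromosome 3 with 1.33 kb between them and have coding sequences 90.3% identical over 762 aligned bases, and AOC3 follows AOC2 after 1.09 kb. VSP2 and VSP1 are neighbours on chromosome 5, 5.37 kb apart, and are 90.4% identical in coding sequence. LOX3 and LOX4 are 81.2% identical. Because QuantSeq reads of 50 bases come from transcript ends, the last 500 bases of each transcript were searched for exact runs of that length elsewhere in the nuclear genome. Only AOC2 had any, 50 bases that also occur in AOC3, so a small part of the AOC2 end could not be assigned to it or to AOC3. The other 8 members had no such run. Shorter or inexact matches and other transcript ends were not searched, so the assignment of reads between copies was not tested.

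Values are given as normalized reads, the authors' reads adjusted to a common library size. Differences are log2 fold changes of (normalized reads + 1) fitted with limma, the adjusted threshold is a Benjamini-Hochberg adjusted p of 0.05 over all genes tested, and the study's criterion is an unadjusted P under 0.05 with a fold change above 1.1. The estimated depth before the authors' adjustment to a common library size ran from 2110000 to 5160000 reads per library. BAF1 checked the genotype labels, with 5.80 to 13.0 normalized reads in baf1 without BRZ and 0.0627 to 13.5 in baf1 with BRZ, against 218 to 317 in WT with BRZ and 290 to 399 in untreated WT. It was also lower in bes1-D than in WT without BRZ (−0.46, adjusted p = 0.0207). The BR synthesis genes DWF4, CPD and BR6OX2, which BR represses, were higher with BRZ in WT and in baf1 at an adjusted p under 0.05 and lower in bes1-D than in WT with and without BRZ. BES1 mRNA did not pass the adjusted threshold in any comparison. Sums over 7 root markers ran from 460.0 to 683 normalized reads and are given by group beside LOX2, and those of the floral markers AP1, AP3, PI and AG stayed at 0.492 to 12.3 normalized reads. Untreated WT replicate 5 stood apart from its group in VSP2, at 208 against 32.6 to 49.6 normalized reads in the other untreated WT libraries. Its estimated depth was the lowest of that group, 2620000 reads against 3780000 to 5160000. The differences of VSP1 and VSP2 from untreated WT printed below, and calls that change without that library, are given without it too. Summed transcripts of 13 seed storage genes ran from 7.80 to 1780 normalized reads and were highest in baf1 BRZ replicate 4.

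LOX2, the lipoxygenase whose protein sits in chloroplasts and supplies the wound burst of jasmonate in leaves, differed from WT in opposite directions in the 2 mutants. Its level was 87.3, 60.6, 177 and 63.9 normalized reads in bes1-D without BRZ, 369, 364, 368 and 343 in baf1 without BRZ, and 202, 201, 196 and 256 in untreated WT. All bes1-D libraries were below every untreated WT library and all baf1 libraries above them, with bes1-D replicate 3 the closest of its group to WT. On the log2(normalized reads + 1) scale the difference was −1.26 (SE 0.24, adjusted p = 0.00343) for bes1-D and 0.76 (SE 0.11, adjusted p = 0.00325) for baf1, and the means were 45.5% of that of WT in bes1-D and 169% in baf1. In whole seedlings a smaller share of a tissue cannot be told apart from less RNA per cell. Both comparisons share the untreated WT libraries. Leaving out WT replicate 5 gave −1.17 (adjusted p = 0.000554) for bes1-D and 0.85 (adjusted p = 2.98e-06) for baf1. Neither mutant lost the call when any other library was left out, and without bes1-D replicate 3 the bes1-D difference was −1.60. Without the filter on low values both calls were lost (adjusted p = 0.175 for bes1-D and 0.117 for baf1), and that of baf1 was lost in a fit over all 22 libraries (adjusted p = 0.16).

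The same order held with BRZ. LOX2 had 76.2, 59.3 and 110 normalized reads in bes1-D with BRZ, 283, 282, 268 and 322 in baf1 with BRZ and 211, 207 and 210 in WT with BRZ. The 3 groups did not overlap. bes1-D was lower than WT (log2 difference −1.39, SE 0.20, adjusted p = 6.49e-05), a call lost only without the filter (adjusted p = 0.0972). For baf1 over WT under BRZ the difference was 0.46 (SE 0.12), which passed the study's criterion but not the adjusted threshold (adjusted p = 0.433). Set directly against each other, a comparison added after these values had been seen, bes1-D had less LOX2 than baf1 by −2.02 without BRZ (SE 0.19, adjusted p = 6.04e-09) and by −1.85 with BRZ (SE 0.18, adjusted p = 7.06e-06). BRZ over untreated gave LOX2 differences of −0.15 in bes1-D, −0.32 in baf1 and −0.02 in WT, none past the adjusted threshold, although the baf1 groups did not overlap and the baf1 difference became a call without BRZ replicate 4 (−0.38, adjusted p = 0.0236). The interaction of baf1 with BRZ for LOX2 was −0.30 (SE 0.15), past neither criterion. Without untreated WT replicate 5 it was −0.39 and passed the study's criterion only. In order of their means the 6 groups were baf1, baf1 with BRZ, WT, WT with BRZ, bes1-D and bes1-D with BRZ, and the libraries of neighbouring groups overlapped only between the WT groups and between the bes1-D groups.

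Of 4 shoot markers, RBCS1A and chlorophyll-binding protein genes among them, 2 were lower in bes1-D than in WT on each medium and 0 of 4 passed the adjusted threshold in limma in baf1, with 1 higher at the study's criterion without BRZ. Their sum ran from 52770 to 57940 normalized reads in bes1-D without BRZ, 67250 to 74330 in baf1 without BRZ and 55070 to 72660 in untreated WT. The light-harvesting protein genes LHCB2.1 and LHCB1.3 fell in bes1-D against WT by 0.95 (adjusted p = 7e-06) and 0.44 (adjusted p = 0.00471) on the log2 scale, while RBCS1A, for the Rubisco small subunit, differed by 0.16 (adjusted p = 0.501) and CA1, a carbonic anhydrase gene, by 0.02 (adjusted p = 0.958). With BRZ the sum was 40810 to 53090 in bes1-D, 65690 to 81830 in baf1 and 67220 to 79380 in WT, where LHCB2.1 fell by 1.21 (adjusted p = 1.66e-06) and LHCB1.3 by 1.1 (adjusted p = 5.96e-05) in bes1-D over WT and RBCS1A differed by −0.08 and CA1 by 0.02. Against baf1, bes1-D was lower without BRZ in LHCB2.1 (−0.88), LHCB1.3 (−0.38) and CA1 (−0.24, adjusted p = 0.0484) and with BRZ in LHCB2.1 (−1.21) and LHCB1.3 (−1.01). With BRZ in baf1 LHCB1.3 rose by 0.35 (adjusted p = 0.0315) and CA1 fell by 0.61 (adjusted p = 0.0359). The part of shoot tissue in the LOX2 difference was not tested.

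Some root markers also differed in bes1-D, in both directions. With BRZ their sum was 460.0 to 498 normalized reads in bes1-D, 501 to 577 in baf1 and 532 to 683 in WT, with no overlap between bes1-D and WT, and the root hair genes COBL9 and EXPA7 fell by 1.13 (adjusted p = 0.0143) and 0.87 (adjusted p = 0.0218) in bes1-D over WT. Without BRZ the sum was 522 to 564 in bes1-D, 471 to 603 in baf1 and 534 to 683 in WT. There IRT1, the iron transporter of the root epidermis, averaged 50.4 ± 12.4 normalized reads in bes1-D, 17.1 ± 5.69 in baf1 and 17.2 ± 1.96 in WT (SD, n = 4 each), and rose in bes1-D over WT by 1.47 (adjusted p = 0.000416) and over baf1 by 1.54 (adjusted p = 0.00011). IRT1 also rose by 1.32 with BRZ in baf1 (adjusted p = 0.0277). In bes1-D and WT with BRZ, IRT1 averaged 39.85 and 27.4 normalized reads and MYB36 38.4 and 33.4. CASP1, the largest part of the sum, averaged 224 and 272 there, SCR 50.8 and 61.1 and SHR 66.15 and 75.0. Only COBL9 and EXPA7 passed either criterion in that comparison. The part of root tissue in the LOX2, AOC2 and other bes1-D differences was not tested.

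**Figure D1:**
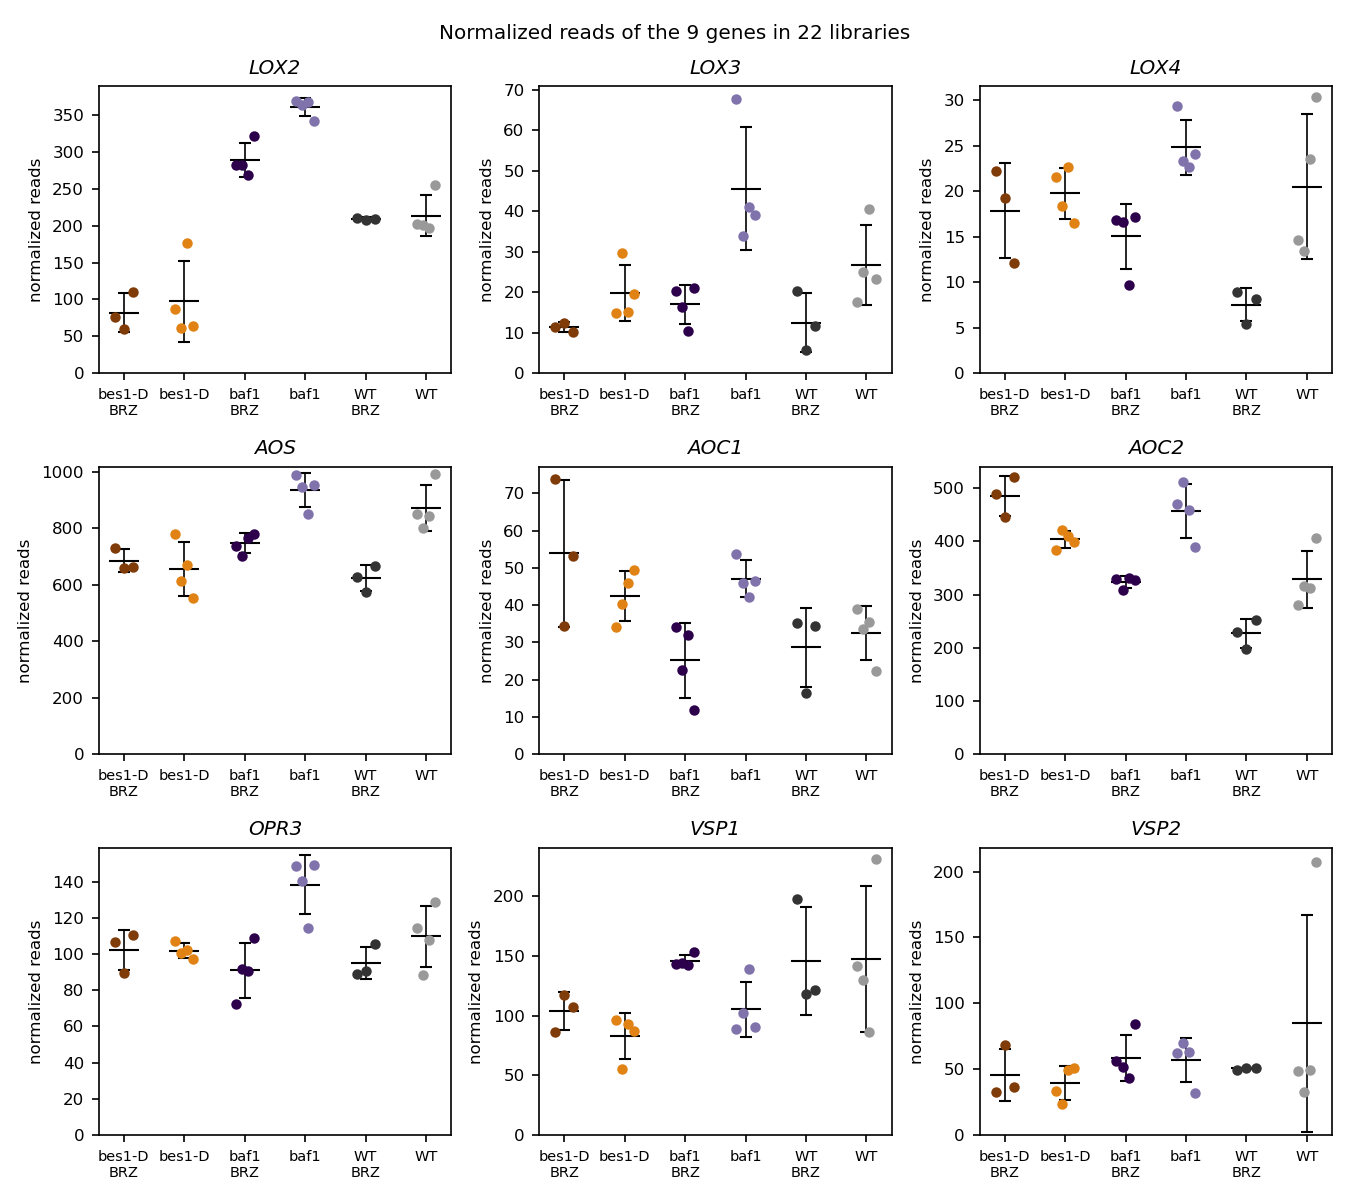
Normalized reads (vertical axes, from 0) of each of the 9 genes in bes1-D, baf1 and WT seedlings with 250 nM BRZ or without it. Points are libraries, horizontal bars group means and whiskers 1 SD. LOX2 is lowest in bes1-D (mean 97.2 without BRZ), highest in baf1 (mean 361 without BRZ) and between them in WT (mean 214), and the VSP2 panel shows the single untreated WT library at 208.

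LOX3 and LOX4, the other plastid 13-lipoxygenases of the list, which act together in fertility and systemic wound signalling, were near the filter on low values. LOX3 had 14.8, 29.5, 15.1 and 19.4 normalized reads in bes1-D without BRZ, 67.8, 33.9, 41.1 and 39.2 in baf1 without BRZ, and 17.5, 25.1, 40.6 and 23.3 in untreated WT. The baf1 and WT groups overlapped through WT replicate 4, and the log2 difference of baf1 over WT, 0.77 (SE 0.27), passed the study's criterion only (adjusted p = 0.332). Without baf1 replicate 1 it was 0.56 and no longer passed. bes1-D lay within the range of WT or just below it (log2 difference −0.40, 95% confidence interval −1.02 to 0.21) and below every baf1 library (−1.17, SE 0.25, adjusted p = 0.00248), a call lost without the filter (adjusted p = 0.165). LOX3 stands on chromosome 1, 707 kb from BES1 with 195 protein-coding genes between them, so in bes1-D an effect of linked DNA on it cannot be told apart from one of the allele.

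LOX3 was lower with BRZ in baf1, where the gene had 20.2, 16.4, 10.5 and 21.1 normalized reads with BRZ against the 33.9 to 67.8 without it. The groups did not overlap and LOX3 fell by 1.36 on the log2 scale (SE 0.27, adjusted p = 0.00975). The difference was −1.16 without untreated baf1 replicate 1, whose seed storage sum was 509 normalized reads, and then missed the adjusted threshold (adjusted p = 0.0618), as it did without the filter on low values (adjusted p = 0.218). In the other genotypes the values with BRZ were 11.3, 12.5 and 10.05 in bes1-D and 20.2, 5.59 and 11.6 in WT. Their differences from untreated seedlings, −0.71 in bes1-D and −1.13 in WT, passed the study's criterion only. The WT difference was −0.70 without BRZ replicate 2 and no longer passed, and that of bes1-D no longer passed without untreated replicate 2 or 4 or BRZ replicate 1 or 5 (−0.71 to −0.50). The interaction of genotype with BRZ for LOX3 was −0.23 for baf1 (SE 0.49) and 0.42 for bes1-D (SE 0.52), neither past either criterion.

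LOX4 had 22.3, 19.2 and 12.1 normalized reads in bes1-D with BRZ, 16.9, 16.6, 9.71 and 17.1 in baf1 with BRZ, and 8.86, 5.43 and 8.16 in WT with BRZ. The WT libraries lay below those of both mutants, by log2 differences of 1.13 for bes1-D over WT (SE 0.42, adjusted p = 0.0927) and 0.91 for baf1 over WT (SE 0.38, adjusted p = 0.85), which passed the study's criterion only. The bes1-D value lost it without bes1-D BRZ replicate 1 (0.96), and the baf1 value without WT BRZ replicate 2 or baf1 BRZ replicate 1, 2 or 4 (0.72 to 0.86). Without BRZ the groups overlapped, with 16.5 to 22.6 in bes1-D, 22.7 to 29.3 in baf1 and 13.4 to 30.3 in WT, except that every bes1-D library was below every baf1 library. BRZ over untreated gave −0.17 in bes1-D, −0.71 in baf1 and −1.29 in WT. The WT groups did not overlap, and the interaction for bes1-D, 1.12 (SE 0.46), passed the study's criterion but not the adjusted threshold (adjusted p = 0.285). It lost that criterion without untreated WT replicate 5, WT BRZ replicate 2 or bes1-D BRZ replicate 1 or 3 (0.91 to 1.05). The baf1 difference with BRZ lost it without BRZ replicate 3, the lowest library (−0.53).

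AOS, which makes the allene oxide that commits oxygenated linolenic acid to the jasmonate route, was lower in bes1-D without BRZ. It had 780, 615, 670 and 554 normalized reads there, 990, 948, 851 and 954 in baf1 without BRZ and 852, 802, 845 and 991 in untreated WT. All bes1-D libraries were below all WT libraries, with replicate 1 nearest to them, and baf1 overlapped WT. AOS fell by 0.42 in bes1-D against WT (SE 0.11, adjusted p = 0.0257) and was lower in bes1-D than in baf1 (−0.52, SE 0.09, adjusted p = 0.000185), while baf1 over WT was 0.10 (95% confidence interval −0.08 to 0.29). The call against WT was lost without bes1-D replicate 2 (−0.39, adjusted p = 0.0941), replicate 3 (−0.44, adjusted p = 0.0561) or replicate 4 (−0.34, adjusted p = 0.102), each time with the same direction, and without the filter on low values (adjusted p = 0.183). The call against baf1 was also lost without that filter (adjusted p = 0.0967). For baf1 over WT the value without WT replicate 5 was 0.17, past the study's criterion only.

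With BRZ the 3 genotypes lay closer together for AOS. The values were 732, 660 and 664 normalized reads in bes1-D, 739, 701, 767 and 782 in baf1 and 626, 576 and 667 in WT. bes1-D overlapped WT (log2 difference 0.14, 95% confidence interval −0.13 to 0.41), and baf1 lay above WT without overlap (0.26, SE 0.11), passing the study's criterion only, and not without WT BRZ replicate 2 or baf1 BRZ replicate 3 (0.21 and 0.25). BRZ over untreated was 0.08 in bes1-D, −0.32 in baf1 and −0.48 in WT. The treated libraries of baf1 and of WT lay below all untreated ones of the same genotype, and both differences passed the study's criterion and missed the adjusted threshold (adjusted p = 0.059 in baf1 and 0.0653 in WT). They became calls without BRZ replicate 4 in baf1 (−0.35, adjusted p = 0.0158) and without untreated replicate 5 in WT (−0.42, adjusted p = 0.0312). The interaction for bes1-D was 0.56 (SE 0.16, adjusted p = 0.133), past the study's criterion only.

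AOC2, an allene oxide cyclase, was the member that rose past the adjusted threshold in bes1-D over WT. In bes1-D with BRZ it had 489, 447 and 522 normalized reads, in baf1 with BRZ 329, 308, 332 and 328, and in WT with BRZ 230, 198 and 253. The 3 groups did not overlap. AOC2 rose in bes1-D over WT by 1.1 (SE 0.15, adjusted p = 2.4e-05), a mean 2.14 times that of WT, and leaving out any library kept the call. It was higher in bes1-D than in baf1 by 0.58 (SE 0.12, adjusted p = 0.00639), and baf1 over WT was 0.52 (SE 0.12, adjusted p = 0.325), past the study's criterion only. The call of bes1-D over baf1 was lost with replicate number as a block in the fit. Without BRZ the values were 384, 422, 411 and 399 in bes1-D, 470, 511, 459 and 389 in baf1 and 281, 316, 313 and 406 in WT. Each mutant overlapped WT only through WT replicate 5. The log2 differences over untreated WT were 0.31 for bes1-D (SE 0.11, adjusted p = 0.113) and 0.48 for baf1 (SE 0.12, adjusted p = 0.142), and both became calls at the adjusted threshold when that library was left out (0.41, adjusted p = 0.00497 for bes1-D, and 0.58, adjusted p = 0.00169 for baf1). Without WT replicate 1 the bes1-D value was 0.24 and passed neither.

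Treated baf1 seedlings had less AOC2 than untreated ones. AOC2 fell by 0.49 in baf1 (SE 0.10, adjusted p = 0.0139), with no overlap between treated and untreated libraries. This call was lost without untreated baf1 replicate 1 (−0.47, adjusted p = 0.0596), replicate 2 (−0.43, adjusted p = 0.0711) or replicate 3 (−0.49, adjusted p = 0.0573), and without the filter on low values (adjusted p = 0.134). In WT the difference was −0.53 (SE 0.14, adjusted p = 0.152), again without overlap, and in bes1-D, where the groups did not overlap either and the treated libraries were the higher, it was 0.26 (SE 0.11, adjusted p = 0.274). The bes1-D value passed the study's criterion, but not without untreated replicate 1 or 4 or BRZ replicate 5 (0.21 to 0.26). The interaction of bes1-D with BRZ for AOC2, 0.79 (SE 0.18), was just short of the adjusted threshold (adjusted p = 0.0568) and passed it without WT replicate 1 (0.87, adjusted p = 0.0351) or bes1-D BRZ replicate 1 (0.79, adjusted p = 0.046), and that of baf1 was 0.04 (95% confidence interval −0.31 to 0.39). AOC3, with which AOC2 shares 50 bases near the transcript end, averaged 58.2 ± 8.97 normalized reads in bes1-D with BRZ and 60.2 ± 20.03 in WT with BRZ (SD, n = 3 each).

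Its neighbour AOC1, with far fewer reads, had 34.1, 40.4, 46.0 and 49.5 normalized reads in bes1-D without BRZ, 53.8, 46.0, 42.1 and 46.5 in baf1 without BRZ and 38.9, 33.6, 35.4 and 22.2 in untreated WT. All baf1 libraries were above all WT libraries (0.55, SE 0.20, adjusted p = 0.37), past the study's criterion only, and without WT replicate 5 the difference of 0.38 no longer passed it. With BRZ it had 74.0, 34.5 and 53.2 in bes1-D, 34.1, 22.5, 32.0 and 11.9 in baf1 and 35.1, 16.5 and 34.5 in WT. bes1-D over WT was 0.90 (SE 0.32, adjusted p = 0.0759) with overlapping groups, and the call at the study's criterion was lost without WT BRZ replicate 2 or bes1-D BRZ replicate 1 (0.55 and 0.64), while without bes1-D BRZ replicate 3 it became a call at the adjusted threshold (1.18, adjusted p = 0.0351). In baf1 the treated libraries lay below all untreated ones (−0.98, SE 0.27, adjusted p = 0.0734), a difference that became a call without BRZ replicate 1 (−1.15, adjusted p = 0.0494). bes1-D against baf1 under BRZ was 1.11 (SE 0.34, adjusted p = 0.0601), also just short of it.

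OPR3, the OPDA reductase needed for stamen jasmonate, had 107, 101, 102 and 97.1 normalized reads in bes1-D without BRZ, 148, 141, 115 and 149 in baf1 without BRZ and 114, 88.5, 108 and 129 in untreated WT. The groups of both mutants overlapped WT. The baf1 difference of 0.33 (SE 0.14, adjusted p = 0.425) passed the study's criterion and lost it when any of 5 of the 8 libraries was left out (WT replicate 2 or 4, or baf1 replicate 1, 2 or 4), with values down to 0.24. With BRZ it had 107, 89.7 and 110 in bes1-D, 72.2, 91.9, 90.9 and 109 in baf1 and 89.1, 90.6 and 106 in WT. OPR3 fell by 0.60 with BRZ in baf1 (SE 0.15, adjusted p = 0.0395), where treated and untreated libraries did not overlap, while the difference was 0.0027 in bes1-D (95% confidence interval −0.31 to 0.32) and −0.20 in WT (−0.54 to 0.15). The call in baf1 was lost without the filter (adjusted p = 0.274) and when any of 6 of its 8 libraries was left out, namely untreated replicate 1, 2 or 4 or BRZ replicate 1, 2 or 3, with values of −0.61 to −0.50. With replicate number as a block in the fit that call was lost too (adjusted p = 0.0667). The baf1 interaction for OPR3 was −0.41 (SE 0.22, 95% confidence interval −0.86 to 0.04), so the BRZ effects in baf1 and WT were not shown to differ. Without untreated WT replicate 5 the interaction was −0.49 and passed the study's criterion only. OPR3 was lower in bes1-D than in baf1 without BRZ (−0.43, SE 0.12, adjusted p = 0.0286), with no overlap, and this call was lost when baf1 replicate 1, 2 or 4 or bes1-D replicate 2 or 4 was left out (−0.43 to −0.39), and without the filter (adjusted p = 0.096).

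VSP1 and VSP2, outputs rather than enzymes of the pathway, did not pass the adjusted threshold in any comparison. VSP1 had 96.7, 55.1, 92.7 and 87.3 normalized reads in bes1-D without BRZ, 88.7, 103, 139 and 90.6 in baf1 without BRZ and 142, 130, 86.0 and 232 in untreated WT. bes1-D overlapped WT only through WT replicate 4 and was lower by −0.77 (SE 0.24, adjusted p = 0.0598), and baf1 over WT was −0.42 (95% confidence interval −0.90 to 0.06). Without WT replicate 5 the bes1-D difference was −0.52 and the baf1 difference −0.17. Without WT replicate 4 the bes1-D difference was −0.99 and passed the adjusted threshold (adjusted p = 0.0107). With BRZ it had 86.4, 117 and 108 in bes1-D, 144, 144, 142 and 154 in baf1 and 198, 118 and 121 in WT. The bes1-D libraries lay below those of the others (−0.46 against WT and −0.50 against baf1), past the study's criterion only. The value against WT lost it without WT BRZ replicate 1 (−0.21) or bes1-D BRZ replicate 1 (−0.33) or 5 (−0.49). In baf1 VSP1 was higher with BRZ than without it in every library (0.49, SE 0.14, adjusted p = 0.0995, and 0.63 with adjusted p = 0.0312 without untreated replicate 3), where 7 other members were lower at the study's criterion.

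VSP2 had 33.6, 23.6, 49.5 and 50.5 normalized reads in bes1-D without BRZ, 62.1, 70.2, 63.3 and 32.2 in baf1 without BRZ and 48.8, 32.6, 49.6 and 208 in untreated WT. The groups overlapped, and neither difference from WT passed either criterion, at −0.75 for bes1-D (95% confidence interval −1.61 to 0.11) and −0.22 for baf1 (−1.09 to 0.65). Without WT replicate 5 the bes1-D value was −0.19. The baf1 value turned to 0.34 when WT replicate 5 was left out, and to 0.03 when baf1 replicate 4 was, so its direction rests on those libraries. In the same library MBP1, a myrosinase-binding protein gene induced by jasmonate, had 136 normalized reads against 37.3 to 45.9 in the other untreated WT libraries, NATA1 had 20.03 against 1.21 to 2.89, and the defensin gene PDF1.2A had 24.8 against 1.83 to 4.36. With BRZ VSP2 had 32.4, 68.3 and 36.2 in bes1-D, 55.8, 51.5, 43.3 and 84.0 in baf1 and 49.7, 50.9 and 51.0 in WT. These groups overlapped too. BRZ over untreated was 0.19 in bes1-D, 0.06 in baf1 and −0.33 in WT, and none passed either criterion. The WT value was 0.23 without untreated replicate 5.

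**Figure D2:**
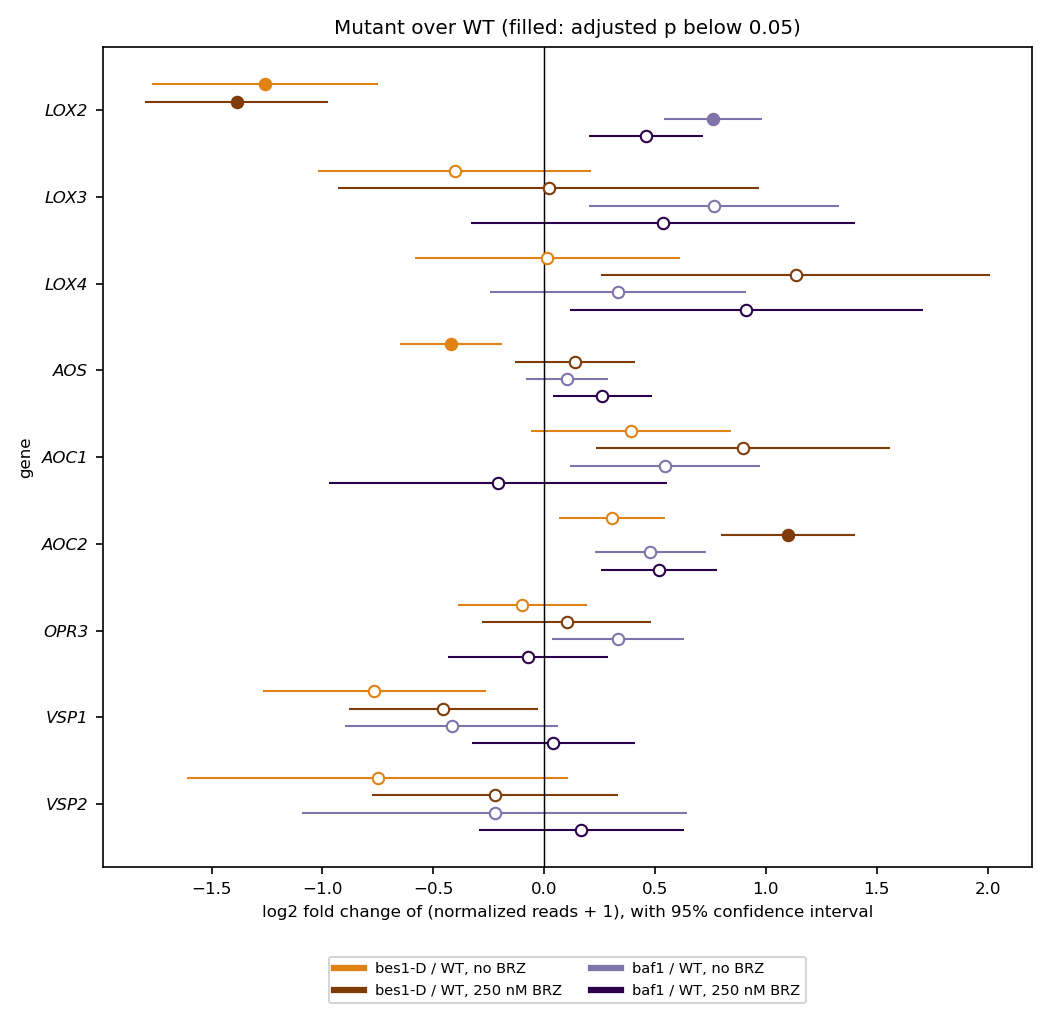
Log2 fold changes of mutant over WT on the log2(normalized reads + 1) scale (horizontal axis) for the 9 genes (vertical axis), with 95% confidence intervals from limma. Filled points have an adjusted p below 0.05. LOX2 lies left of 0 in bes1-D (−1.26 and −1.39) and right of it in baf1 (0.76 and 0.46), and AOC2 lies right of 0 in all 4 comparisons (0.31 to 1.1).

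Counted over the members, bes1-D without BRZ had 2 of 9 at an adjusted p under 0.05, LOX2 and AOS, both lower than WT, where 7.52% of 16270 genes passed. At the study's criterion there were 4, with VSP1 lower and AOC2 higher added, against 22.3% of all genes. The median log2 difference of the members was −0.40, against 0.08 for all genes tested. baf1 without BRZ had 1 of 9 past the adjusted threshold, LOX2, against 0.129% of 16235 genes, and 5 of 9 at the study's criterion, LOX2, LOX3, AOC1, AOC2 and OPR3, all higher, against 10.3%. The median was 0.33, against 0.04 for all genes. With fold change above 1.5 the 5 became 2, a rule for which no share of all genes is given here.

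Under BRZ, bes1-D had 2 of 9 past the adjusted threshold, LOX2 lower and AOC2 higher, against 11.1% of 16294 genes, and 5 at the study's criterion, against 24.4%, with LOX4 and AOC1 higher and VSP1 lower. baf1 under BRZ had 0 of 9 by limma at the adjusted threshold, against 0.0488% of 16379 genes, and 4 at an unadjusted P under 0.05 and fold change above 1.1, LOX2, LOX4, AOS and AOC2, all higher, against 5.6%. In that comparison 8 of 11 seed storage genes tested were higher in baf1 at the study's criterion, and the part of seed transcripts in the result was not tested. Of the members only LOX2 passed the adjusted threshold in more than 1 comparison of a mutant with WT. For bes1-D set directly against baf1, 4 of 9 passed the adjusted threshold without BRZ (LOX2, LOX3, AOS and OPR3, all lower in bes1-D), against 6.76%, and 6 at the study's criterion, against 18.3%. With BRZ 2 passed (LOX2 lower and AOC2 higher in bes1-D), against 7.06%, and 4 at the study's criterion, against 20.8%. There 9 of 10 seed storage genes tested were lower in bes1-D at the adjusted threshold, led by SESA3 (−6.07), OLEO1 (−4.96), CRA1 (−5.01) and CRC (−5.20), and their part was not tested either. OLEO1, an oleosin gene, was also lower in bes1-D than in baf1 without BRZ (−2.86, adjusted p = 0.0178) and than in WT under BRZ (−2.35, adjusted p = 0.0485).

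The response to BRZ asks how the same genes differ in seedlings grown with an inhibitor of BR synthesis. In baf1 LOX3, AOC2 and OPR3 fell, 3 of 9 at the adjusted threshold against 1.8% of 16382 genes, and 8 of 9 passed the study's criterion, 7 lower and VSP1 higher, against 12.5%. In WT 0 of 9 passed by limma at the adjusted threshold, against 0.605% of 16194 genes, and 4 passed at an unadjusted P under 0.05 and fold change above 1.1, LOX3, LOX4, AOS and AOC2, all lower, against 10.2%. In bes1-D 0 of 9 passed by limma at the adjusted threshold, against 0.576% of 16309 genes, and 2 at the study's criterion, LOX3 lower and AOC2 higher, against 14.6%. The median log2 difference of the members was 0.08 in bes1-D, −0.49 in baf1 and −0.33 in WT, where the medians over all genes lay between 0.0033 and 0.04. For the interaction of baf1 with BRZ 0 of 9 passed either rule in limma, also at an unadjusted P under 0.05, against 0% and 5.79% of 16315 genes. For that of bes1-D 0 passed the adjusted threshold in limma, against 0.239% of 16288 genes, and 3 passed at an unadjusted P under 0.05 and the fold, LOX4, AOS and AOC2, against 13.7%.

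Seed storage transcripts moved with BRZ in baf1. Their sum over 13 genes ran from 141 to 1780 normalized reads in baf1 with BRZ and from 7.80 to 509 in baf1 without it, 9 of the 10 tested were higher at the study's criterion, and SESA3 passed the adjusted threshold. The sum of 8 touch and wound transcripts, among them TCH2, TCH3 and ZAT10, was 2216 to 2617 normalized reads in baf1 with BRZ and 1874 to 2078 without it. TCH3 made up most of that sum, with a mean of 1870 with BRZ and 1401 without it. TCH2 (207 and 236) and TCH4 (197 and 230) averaged lower with BRZ, and ZAT10, ZAT12, ERF13, WRKY33 and WRKY40 higher. The part of seed storage or of touch and wound transcripts in the jasmonate gene differences was not tested.

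**Figure D3:**
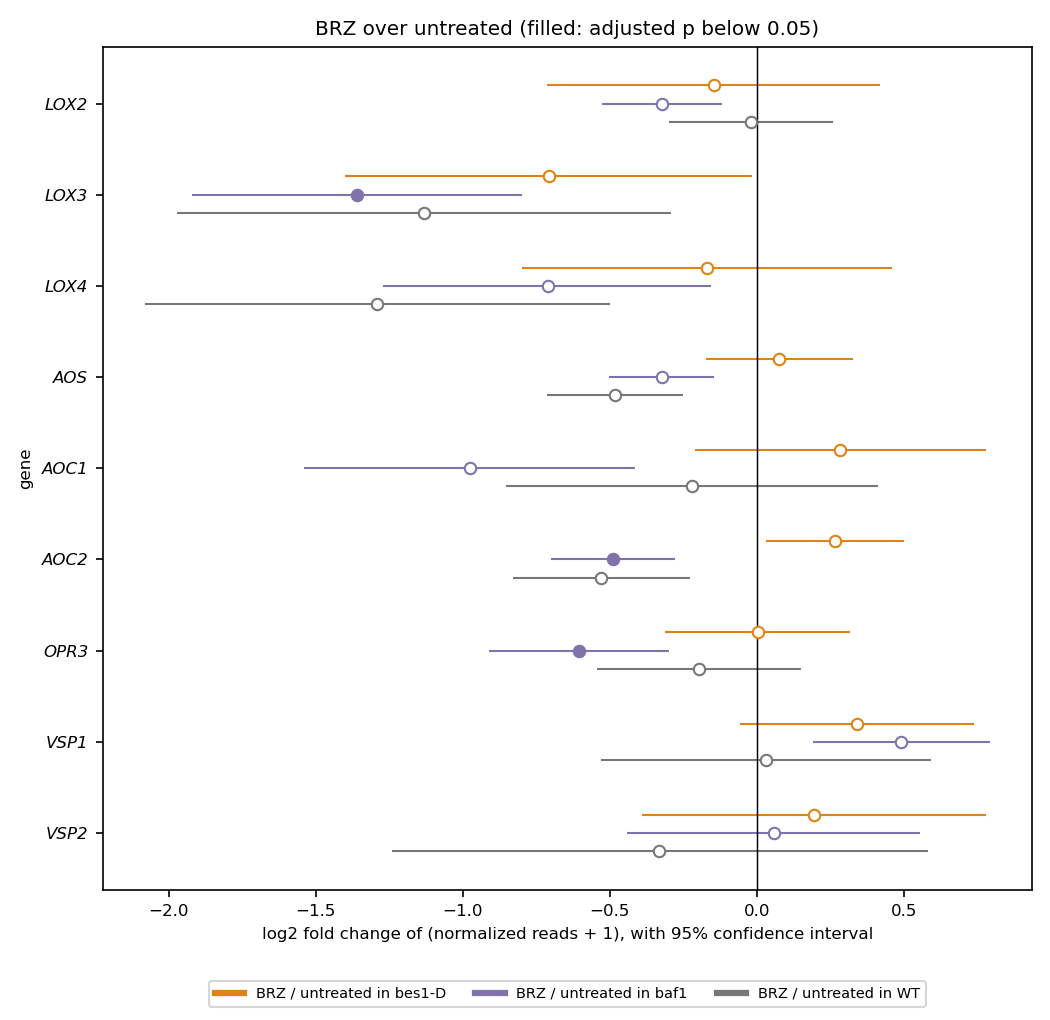
Log2 fold changes of BRZ over untreated seedlings on the log2(normalized reads + 1) scale (horizontal axis) for the 9 genes (vertical axis) in bes1-D, baf1 and WT, with 95% confidence intervals from limma. Filled points have an adjusted p below 0.05, and these are LOX3 (−1.36), AOC2 (−0.49) and OPR3 (−0.60) in baf1.

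Other genes of the pathway were counted from lists by role. Of 13 further synthesis genes (lipases, LOX6, AOC3, AOC4, transporters and beta-oxidation enzymes) 11 were tested. None passed the adjusted threshold in limma for baf1 over WT on either medium, bes1-D over WT without BRZ or BRZ in any genotype. At the study's criterion 0 to 4 passed in these comparisons. AIM1, a beta-oxidation enzyme gene, was higher in bes1-D than in baf1 without BRZ (0.31, adjusted p = 0.0254) and with it (0.45, adjusted p = 0.0401). In bes1-D under BRZ KAT2, a thiolase of beta-oxidation, was lower than in WT (−0.50, adjusted p = 0.0334). The paralogues OPR1 and OPR2 are cytosolic reductases, and OPR1 rose in bes1-D, with OPR1 at 556 ± 25.7 normalized reads in bes1-D and 364 ± 30.3 in WT without BRZ (SD, n = 4 each, log2 difference 0.61, adjusted p = 0.00054). Under BRZ OPR1 rose by 0.83 (adjusted p = 0.000698) and OPR2 by 0.69 (adjusted p = 0.0357) in bes1-D over WT. LOX1, a 9-lipoxygenase outside the jasmonate route, rose by 0.80 in bes1-D without BRZ (adjusted p = 0.00873). OPR2 fell by 0.76 with BRZ in baf1 (adjusted p = 0.012). The annotated OPR1 and OPR2 overlap on the same strand, so reads in the shared stretch are uncertain. OPR1 was higher in bes1-D than in baf1 without BRZ (0.42, adjusted p = 0.00162) and with it (0.52, adjusted p = 0.0185), and as the pair lies 111 kb from BAF1, linked DNA in the insertion line cannot be told apart from loss of BAF1 in these values.

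Among the JAZ repressors, early jasmonate-induced genes themselves, 7 or 8 of 13 were tested. JAZ1 fell by 0.81 (adjusted p = 0.000144) and JAZ3 by 0.83 (adjusted p = 0.021) in bes1-D over WT without BRZ, and JAZ3 fell by 1.47 (adjusted p = 0.00159) and JAZ9 by 0.58 (adjusted p = 0.0409) under BRZ. JAZ1 averaged 439 ± 31.9 normalized reads in bes1-D and 774 ± 117 in WT without BRZ (SD, n = 4 each). It lies 64.8 kb from BES1, so linked DNA cannot be told apart from the allele there. JAZ9 fell by 0.49 with BRZ in baf1 (adjusted p = 0.0453), and was lower in bes1-D than in baf1 by −0.84 without BRZ (adjusted p = 5.98e-06) and −0.68 with it (adjusted p = 0.0136), as were JAZ1 without BRZ (−0.62, adjusted p = 2.3e-05) and JAZ3 with it (−1.22, adjusted p = 0.00598). None of the JAZ genes passed the adjusted threshold in limma for baf1 over WT, and at the study's criterion 1 was higher without BRZ and 0 passed with it. Of the perception genes COI1, the MYC genes, NINJA, TPL and MED25, 7 of 8 were tested, and 0 passed the adjusted threshold in limma for either mutant over WT or for BRZ, with at most 2 at the study's criterion.

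Conjugation and turnover genes gave ST2A, a hydroxyjasmonate sulfotransferase, lower by 1.21 in bes1-D without BRZ (log2 difference −1.21, adjusted p = 0.00109), and ILL6, an amidohydrolase of jasmonoyl-isoleucine, higher by 0.94 in bes1-D over WT (adjusted p = 0.0232) and by 1.04 over baf1 (adjusted p = 0.0209) under BRZ. Of the 10 genes of the MYC branch 5 were tested. In bes1-D over WT 1 of the 5 passed the adjusted threshold without BRZ, against 7.52% of all genes, and 1 under BRZ, against 11.1%. The median log2 difference of the list was −0.12 without BRZ and 0.28 under BRZ. ANAC055, a NAC factor induced through MYC2, fell in bes1-D by 2.12 without BRZ (adjusted p = 0.00117), with 7.17 ± 4.08 normalized reads in bes1-D and 31.7 ± 7.68 in WT (SD, n = 4 each), and by 1.66 under BRZ (adjusted p = 0.000804). It was lower in bes1-D than in baf1 by −2.26 without BRZ (adjusted p = 2.11e-05) and −1.26 with it (adjusted p = 0.0186), and CORI3 by −0.64 without BRZ (adjusted p = 0.00487). CORI3, a coronatine-induced cystine lyase gene, fell by 0.68 (adjusted p = 0.0107) and CLH1 by 1.03 (adjusted p = 0.0277) with BRZ in baf1. Of 5 genes of the ERF branch 1 had enough reads, and it passed in no comparison. Of 8 rapid touch and wound genes TCH3 rose by 0.42 with BRZ in baf1 (adjusted p = 0.00741), and TCH4 fell by 0.87 (adjusted p = 0.0119) and WRKY40 by 1.56 (adjusted p = 0.0347) in bes1-D over WT under BRZ, with WRKY40 also lower than in baf1 (−1.55, adjusted p = 0.0344).

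Variation between libraries of a group was compared between members on log2(normalized reads + 1) after subtracting group means, over 22 libraries and 36 pairs of genes. The points share library and scaling. Pearson's r ran from −0.46 to 0.64 and was positive for 25 pairs. The highest were VSP1 with VSP2 (r = 0.64, permutation p = 0.0016, adjusted over 36 pairs 0.057, with Spearman's rho = 0.58, permutation p = 0.0053, adjusted 0.078) and AOS with OPR3 (r = 0.59, permutation p = 0.0039, adjusted 0.07, with rho = 0.69, permutation p = 0.00052, adjusted 0.019). No pair passed at an adjusted p under 0.05 by Pearson's r, and AOS with OPR3 passed by rho. The permutations moved values freely between groups after the group means were removed. Such values are not independent within a group, so these p-values are likely too small and the pass by rho is uncertain. Without the 2 libraries farthest from the median of the gene named before the other, r was 0.46 for VSP1 with VSP2 and 0.69 for AOS with OPR3. LOX2 had r between −0.24 and 0.35 with the other members.

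**Figure D4:**
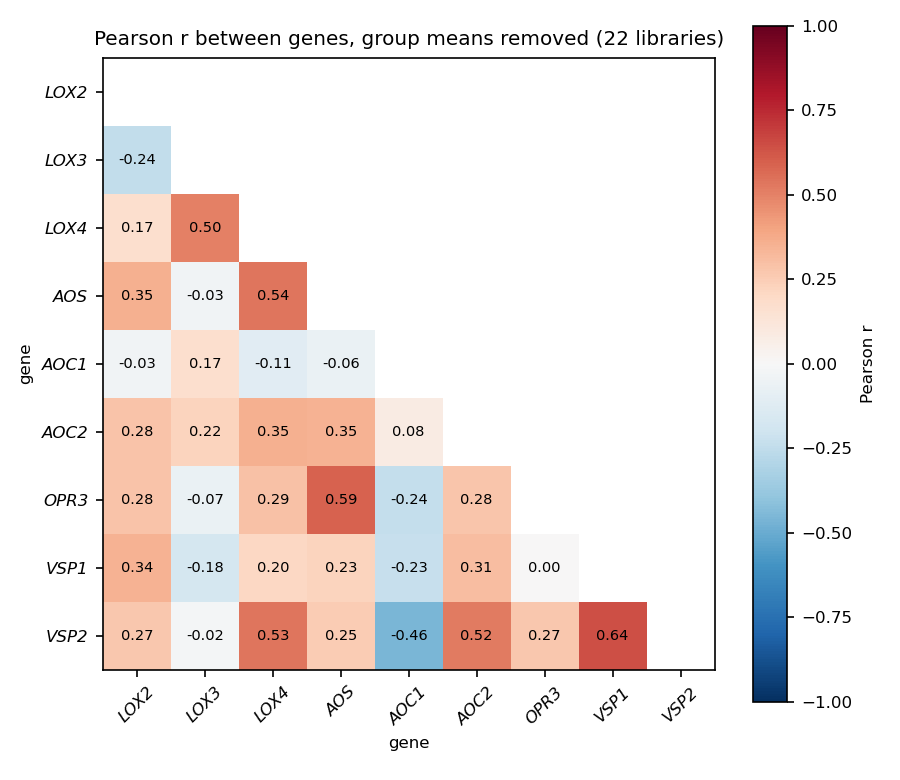
Pearson's r between each pair of the 9 genes (both axes) over 22 libraries after subtraction of group means, on a colour scale from −1 to 1. The highest values are 0.64 for VSP1 with VSP2 and 0.59 for AOS with OPR3, and the lowest is −0.46 for AOC1 with VSP2.

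Across all 22 libraries with group means kept, the genes whose levels were most like a member's were found among the 16330 genes that averaged 10 normalized reads or more. This is a description in which the points share genotype, medium and library. For LOX2 they were AT1G22520 (r = 0.93), AT1G23960 (r = 0.92) and CYP89A5 (r = 0.91), and the nearest member, AOS, ranked 601 (r = 0.62). AT1G22520 and AT1G23960 lie 1.26 and 1.79 Mb from BES1 on chromosome 1. For AOC2 they were HCEF1, a chloroplast fructose bisphosphatase gene (r = 0.88), AT4G29590 (0.87) and SHM1, a photorespiratory hydroxymethyltransferase gene (0.85), and for AOC1 LSH10, AT2G10940 and FED A, a ferredoxin gene (0.83 to 0.85). AOS was most like AT5G26270, CYP712A1 and ANT1 (0.79 to 0.84), OPR3 most like FPS1, AT5G37550 and AT2G34460 (0.72 to 0.74), LOX3 most like CYP702A5, RXF12 and AT5G10210 (0.73 to 0.75) and LOX4 most like LDOX, FBA1 and GASA5 (0.77 to 0.78). VSP1 was most like AT5G47980, FMO GS-OX4 and JAL33 (0.77 to 0.86) and VSP2 most like SWA1, AT3G09850 and ECT2 (0.75 to 0.77). No member was among the 3 genes most like another, and the nearest was AOS to OPR3 at rank 6 (r = 0.69).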

How the data were processed

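The 9 members, the lists of other genes and the comparison of bes1-D with baf1 were chosen with earlier results of these data known. Named were all members, the listed genes with an adjusted p under 0.05 (at most 4 per list and comparison), checks and, for each member, the 3 genes with the highest r.

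Groups and replicate numbers came from the sample labels. Reads were mapped by the authors (TAIR10 genome) in Lexogen's QuantSeq pipeline on BlueBee. The authors' processing notes name STAR, HTSeq and edgeR. The authors deposited a normalized signal (TMM by its name) for every gene and library, which is on the scale of reads adjusted to a common library size (column totals of 3633741 to 3636541) and is not a count. Depth was estimated by inverting that adjustment on 150 genes with low values at a dispersion of 0.05. No count model was fitted. The study's own differential expression test, PoissonSeq, was not used here. Protocols give long days in one place and continuous light in another, and the light regime is not settled here.

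limma 3.58.1 in R 4.3.3 (lmFit, eBayes with a trend) was fitted to log2(value + 1), a scale that understates changes of low genes, on the libraries of each comparison, for genes averaging 10 or more. Calls used a two-sided Benjamini-Hochberg adjusted p under 0.05 over all genes tested, or the study's criterion. Intervals are 95% from the same fit. Interactions used the 4 groups concerned. The script was tested on simulated data. Correlations used 100000 permutations. Alternatives were pseudocounts 0.1 and 5, no filter, a filter at 50, rescaling by median-of-ratios size factors, a fit over all 22 libraries, a replicate block, a fold above 1.5, other settings of the correlations, promoters without the bases after the start, and each library left out. Figures were drawn with matplotlib 3.10.9.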

Additional observations from a re-analysis of the deposited data

Results flagged for a closer look

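Single libraries stood apart from their group in 5 of the 36 sets of 4 libraries examined. The rule flags about 1 in 20 sets of independent, normally distributed values. These sets share libraries between genes and the values were not logged, so the 5 cannot be judged against that rate. LOX2 in untreated WT replicate 5 was 256 normalized reads against 196 to 202 in the others, and VSP2 in the same library was 208 against 32.6 to 49.6. In baf1 with BRZ, LOX4 was 9.71 in replicate 3 against 16.6 to 17.1, AOC2 was 308 in replicate 2 against 328 to 332, and VSP1 was 154 in replicate 4 against 142 to 144.

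LOX2 differed from WT in opposite directions in bes1-D and baf1. The difference between the mutants, tested directly, was −2.02 on the log2 scale without BRZ and −1.85 with BRZ, with no overlap between the libraries on either medium.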

How the results depend on the processing

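The 45 called log2 differences gave 654 alternative values, of which 527 kept direction and side of the threshold, 33 gained a call, 94 lost one and 0 reversed. Of 54 uncalled differences 24 changed sign in some alternative and 0 became a call at the adjusted threshold.

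No share of all genes is given for the settings below, so the counts show only how the calls of the members moved. Members at an adjusted p under 0.05 numbered as follows. For baf1 over WT without BRZ the 1 became 0 without the filter, 0 with all 22 libraries and 1 to 2 with a library left out. For bes1-D over WT without BRZ the 2 became 0 without the filter and 1 to 3 with a library left out, and under BRZ the 2 became 1 without the filter. Without BRZ, VSP1 was gained with size factors (adjusted p = 0.0466) and with all 22 libraries (adjusted p = 0.0248). Under BRZ, LOX4 was gained with all 22 libraries (adjusted p = 0.016) and AOC1 without bes1-D BRZ replicate 3 (adjusted p = 0.0351). For BRZ in WT the 0 became 1 with size factors, 3 with all 22 libraries and 0 to 1 with a library left out, and in baf1 the 3 became 0 without the filter and 0 to 5 with a library left out. For the bes1-D interaction the 0 became 1 at a minimum mean of 50, 1 with size factors, 1 with all 22 libraries and 0 to 1 with a library left out. For bes1-D over baf1 without BRZ the 4 became 1 without the filter. Why the counts changed was not tested.

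At the study's criterion, requiring a fold above 1.5 gave 2 for baf1 over WT, 2 for bes1-D over WT and 2 for bes1-D over baf1 without BRZ, 2, 4 and 1 for BRZ in WT, baf1 and bes1-D, 1 for baf1 over WT under BRZ and 2 for bes1-D over baf1 under BRZ. A minimum mean of 50, which leaves fewer members tested, gave 3 for baf1 over WT and 3 for bes1-D over baf1 without BRZ, 2, 5 and 1 for BRZ in WT, baf1 and bes1-D, 3 for bes1-D over WT under BRZ and 1 for the baf1 interaction. Without the filter the counts were 3 for bes1-D over WT under BRZ and 1 for the baf1 interaction, and with all 22 libraries 1 for BRZ in bes1-D. With a library left out they ran from 3 to 6 for baf1 over WT without BRZ, 2 to 5 with it, 2 to 6 for bes1-D over WT under BRZ, 0 to 3 for BRZ in bes1-D and 0 to 2 for the baf1 interaction.

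The replicate numbers were not taken to pair the samples. Deviations of 19 same-numbered pairs correlated at −0.21 to 0.26 and exceeded 0.1 in 7, and those of replicate 1 were all positive (0.0447 to 0.261). With the replicate block the members at an adjusted p under 0.05 were 3 for baf1 over WT without BRZ, 4 for bes1-D over WT without BRZ, 2 for BRZ in WT and 1 for bes1-D over baf1 under BRZ, and those at the study's criterion 1 for BRZ in bes1-D and 2 for the baf1 interaction. AOC2 lost its call for bes1-D over baf1 under BRZ, and OPR3 lost that for BRZ in baf1 (adjusted p = 0.0667).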
